A study of Mus musculus with 9 samples.

Results

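Extracellular metalloproteases and their inhibitors were followed as 80 genes among the 56481 gene symbols of a mouse RNA sequencing count table. A gene was taken when its symbol was Mmp, Adam or Adamts followed by a number, with an optional letter after the number for Mmp and Adam, or when it was one of the Timp genes. This gave 23 matrix metalloproteases (Mmp), 34 members of the Adam family, 19 of the Adamts family and 4 tissue inhibitors of metalloproteases (Timp). The rule read names only and no measured value, but it was set with earlier results of these data known.

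The study compared 3 kinds of cells with 3 libraries each. Primary neural crest cells (pNCC) were taken from E13.5 mouse embryos and kept in medium with 10% fetal bovine serum. The induced group (iCEC) started from neural crest cells that were grown on gelatin and moved, once nearly confluent, to medium with 5% KSR, a serum replacement, and 5 μM SB431542, which blocks the TGF-β type I receptor. That medium was changed at intervals of 2 days, cell clusters were seen by day 4 and colonies were examined at day 12. The third group carries the label of primary corneal endothelium (pCEC), was kept in the same serum medium as pNCC, and comes from mice whose age, like the strain and genotype of all 3 groups, is not given in the sources used here. The change of medium and the inhibitor came together in iCEC, so their parts cannot be told apart.

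Matrix metalloproteases are zinc enzymes, secreted or held in the membrane, that cut collagens, laminins and other matrix proteins after a propeptide has been removed. ADAMs are membrane proteins, many of which shed the outer parts of growth factors, Notch receptors and cadherins, while ADAMTS proteases are secreted and act on procollagens, versican and aggrecan. TIMPs bind the active site of these enzymes, and in the embryo the balance between proteases and inhibitors is known to bear on how neural crest cells leave the neural tube and move through matrix.

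The count total of a library lay between 27389292 (pCEC 3) and 47967113 (iCEC 1). Replicates 2 and 3 of pCEC carry the label total RNA, and all others polyA RNA. Summed over 9 surface epithelial markers, including keratins Krt5, Krt14 and Krt12, the level was 82.1 to 133 CPM (counts scaled to the total count of the library) in pNCC, 13574 to 21766 CPM in iCEC and 56919 to 72696 CPM in pCEC. Summed over 8 corneal endothelial markers it was 377 to 633 CPM, 474 to 758 CPM and 602 to 834 CPM. The iCEC libraries and those labelled pCEC thus held far more transcript of epithelial than of endothelial markers, as summed CPM not scaled to gene length. For pCEC this goes against a label of endothelium alone, and "pCEC" is used here as a label. Of the epithelial markers, Krt12 and Pax6 were too low to be tested in iCEC against pNCC. Krt12, Pax6, Aldh3a1 and Krt5 were lower in iCEC than in pCEC, Epcam was higher, and the others did not pass. Of the endothelial markers, Slc4a11, Col8a2, Tjp1 and Aqp1 were higher in pCEC than in pNCC, and Cdh2 and Col8a1 were lower. In iCEC against pNCC, Atp1b1, Car2, Tjp1 and Slc4a11 were higher, and Cdh2, Aqp1 and Col8a2 were lower. Between iCEC and pCEC, Aqp1, Col8a2 and Slc4a11 were lower in iCEC and Car2 was higher. Endothelial markers not named in a comparison did not pass in it. Mesenchymal and neural crest markers (7 genes) summed to 4936 to 5559 CPM in pNCC, to 31.5 to 119 CPM in iCEC and to 130 to 253 CPM in pCEC. iCEC 3 stood apart from iCEC 1 and iCEC 2 in several members, and pCEC 1 or pCEC 3 from the other pCEC libraries in others, so values are given by library, always in the order of replicates 1, 2 and 3.

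Of the 80 genes, 10 had no count in any of the 9 libraries. These were Mmp1a and 9 Adam genes (Adam7, Adam24, Adam25, Adam26a, Adam26b, Adam29, Adam34, Adam34l and Adam39). With these included, 30 members had a mean under 1 CPM in every group. A group mean of at least 10 CPM was reached by 34 members in pNCC, 16 in iCEC and 16 in pCEC, and by 38 in any group. Levels between genes are compared below as CPM per kb, that is, CPM divided by the exon length of the gene in the GENCODE M21 annotation.

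**Figure D1:**
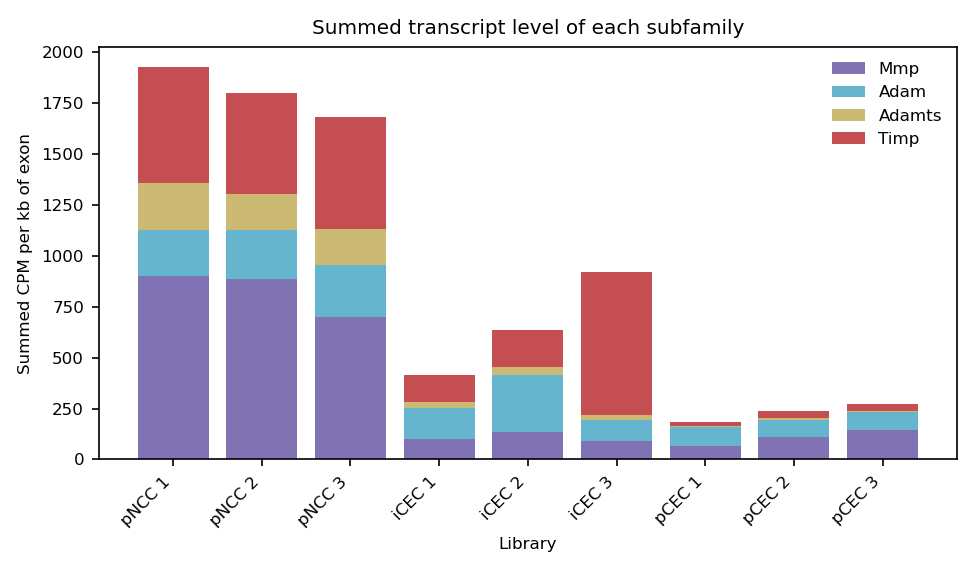
Summed level (CPM per kb of exon, stacked bars from 0) of the Mmp, Adam, Adamts and Timp members in each of the 9 libraries. The 3 pNCC bars are the tallest, and the Timp share of the iCEC 3 bar is larger than that of the other iCEC bars.

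The summed Mmp level was 829 ± 111 CPM per kb (SD, n = 3) in pNCC, 108 ± 23.2 CPM per kb in iCEC and 107 ± 40.0 CPM per kb in pCEC. Adamts transcripts summed to 194 ± 31.7, 30.1 ± 4.38 and 6.69 ± 2.72 CPM per kb in the same order of groups. Adam transcripts differed less, with 241 ± 14.4, 180 ± 92.7 and 89.0 ± 5.03 CPM per kb. For Mmp and Adamts, all pNCC libraries lay above all libraries of the other groups, and for Adamts all iCEC libraries also lay above all pCEC libraries. For Adam, iCEC 2 at 283 CPM per kb lay above all 3 pNCC libraries. The plot of summed levels shows these sums by library. In bulk libraries, fewer cells that carry a transcript and less of that transcript in each cell cannot be told apart.

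Each pair of groups was compared with edgeR's quasi-likelihood test over all genes, with Benjamini-Hochberg adjusted p-values and a threshold of 0.05. In iCEC against pNCC, 49 members passed the filter on low counts, of which 30 fell, 3 rose and 16 did not pass the test. Among all 16293 genes tested, 31.3% were called, 15.1% lower and 16.1% higher. The median log2 fold change was -2.94 over the tested members and 0.05 over all tested genes. In pCEC against pNCC, 50 members were tested, of which 35 were lower, 8 were higher and 7 did not pass, where 62.5% of all 16608 tested genes were called, 32.2% lower and 30.3% higher. The median log2 fold change was -4.01 over the tested members and -0.01 over all tested genes. Both comparisons use the same 3 pNCC libraries, so their values stand side by side and are not independent. Because the filter keeps genes that are high in either group, a member present only in pNCC entered the fit through those libraries.

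**Figure D2:**
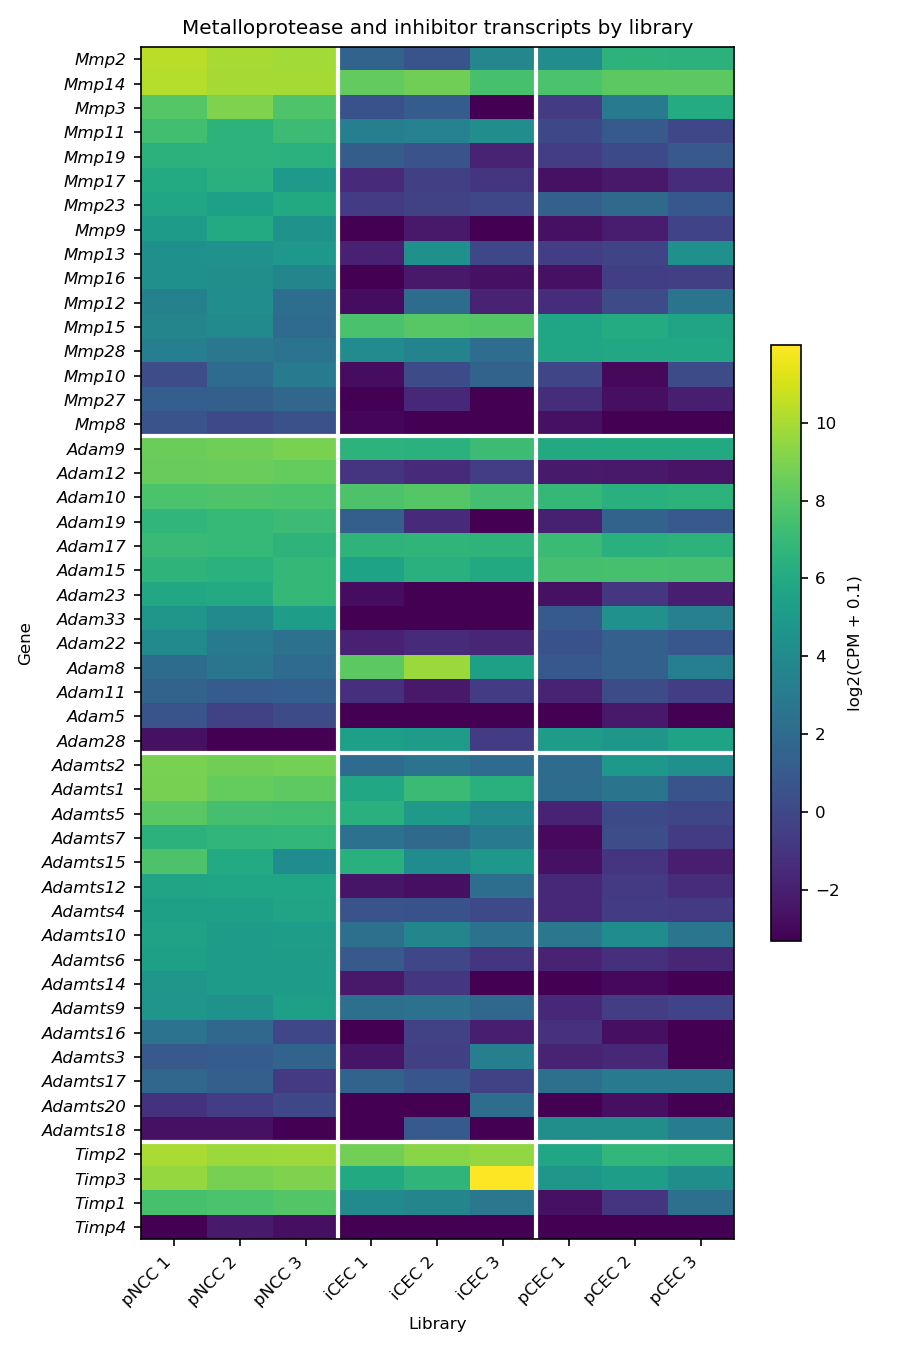
Heat map of log2(CPM + 0.1) for the 49 named members (rows, by subfamily) in the 9 libraries (columns, by group). Most rows are bright in the 3 pNCC columns and dark in the other 6. Mmp15, Mmp28, Adam8, Adam15, Adam28, Adamts17 and Adamts18 were called higher than pNCC in at least 1 of the other groups.

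Adam12 (meltrin alpha, chr7:133883199-134232146, minus strand, mm10), an ADAM of embryonic mesenchyme that is known from muscle and fat cell formation, was the given marker of the family. It stood at 341, 354 and 336 CPM in pNCC, 0.417, 0.272 and 0.595 CPM in iCEC and 0.120, 0.111 and 0.0730 CPM in pCEC. All 3 pNCC libraries were high and all 6 others lay under 1 CPM, with no overlap. The fall was 809.6-fold in iCEC (log2 change -9.66 with SE 0.29 and adjusted p = 0.000126). In pCEC the fitted level was 2957-fold lower (log2 change -11.53 with SE 0.19 and adjusted p = 6.45e-07). This value rests on 4, 4 and 2 counts in pCEC, so the fold is uncertain and its SE may be too small. Markers of skeletal muscle (6 genes), where Adam12 is also known, summed to 70.1 to 81.5 CPM in pNCC and to at most 1.08 CPM elsewhere. Their part in the difference was not tested.

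Mmp2 (gelatinase A, chr8:92827291-92853420, plus strand), which cuts denatured collagen and basement membrane collagen, had the highest level per length of all members in pNCC, 329 ± 65.9 CPM per kb. It stood at 1362, 1022 and 944 CPM in pNCC, 2.84, 1.499 and 13.54 CPM in iCEC and 18.4, 94.3 and 91.9 CPM in pCEC. The groups did not overlap, iCEC was lowest, and pCEC 1 lay well under the other pCEC libraries. Mmp2 fell 201-fold in iCEC (log2 change -7.65 with SE 0.94 and adjusted p = 0.00285) and 14.6-fold in pCEC (log2 change -3.87 with SE 0.63 and adjusted p = 0.00158). Keratocyte markers (5 genes) followed a like order within pCEC, with 771, 2283 and 1846 CPM, and their part was not tested. Mmp9, the other gelatinase, known from corneal wounds, was found at 33.8, 65.4 and 23.3 CPM in pNCC and under 1 CPM in all 6 other libraries. It fell in iCEC (log2 fold change -10.03, SE 1.15, from 4 counts in iCEC 2 and none in iCEC 1 and iCEC 3) and in pCEC (log2 fold change -6.98, SE 0.79).

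Mmp14 (MT1-MMP, chr14:54431612-54445364, plus strand), a membrane collagenase that also activates the precursor of Mmp2, had the highest mean level per length among Mmp members in both iCEC and pCEC. It stood at 1252, 975 and 962 CPM in pNCC, 319.9, 401 and 185 CPM in iCEC and 201, 283 and 276 CPM in pCEC. pNCC lay above both other groups, which overlapped each other. The fall was 3.40-fold in iCEC (log2 change -1.76 with SE 0.38 and adjusted p = 0.0176) and 3.82-fold in pCEC (log2 change -1.93 with SE 0.21 and adjusted p = 0.000169). The call in iCEC was lost when any 1 of the 3 pNCC libraries or iCEC 1 was left out, with log2 fold changes from -2.10 to -1.48. Per length, Mmp14 made up 21.6 ± 2.75% of the summed Mmp level in pNCC, 46.0 ± 10.2% in iCEC and 42.0 ± 9.74% in pCEC.

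Mmp15 (MT2-MMP, chr8:95352268-95375080, plus strand), another membrane-bound enzyme, ran the other way. Its levels were 13.2, 15.6 and 4.00 CPM in pNCC, 194, 260.4 and 242 CPM in iCEC and 54.3, 68.7 and 49.5 CPM in pCEC. The 3 groups did not overlap, and iCEC was highest. Mmp15 rose 21.6-fold in iCEC (log2 change 4.43 with SE 0.55 and adjusted p = 0.00288) and was 5.81-fold higher in pCEC than in pNCC (log2 change 2.54 with SE 0.45 and adjusted p = 0.00235). iCEC exceeded pCEC 3.72-fold (log2 change 1.90 with SE 0.23 and adjusted p = 0.00447). It went from 0.235 ± 0.115% of the summed Mmp level per length in pNCC to 40.5 ± 7.995% in iCEC, next to Mmp14. The order of the Mmp members by level per length therefore differed between groups. In pNCC it began with Mmp2, Mmp3 (184 ± 91.6 CPM per kb) and Mmp14 (178 ± 27.5 CPM per kb), where the last pair did not differ beyond their spread. In iCEC it began with Mmp14 (50.6 ± 18.3 CPM per kb) and Mmp15 (43.0 ± 6.32 CPM per kb), which also lay within their spread, and in pCEC with Mmp14 (42.5 ± 7.62 CPM per kb) followed by Mmp2 (20.2 ± 12.8 CPM per kb), Mmp28 (14.3 ± 0.407 CPM per kb) and Mmp3 (13.97 ± 20.3 CPM per kb). The last 3 did not differ beyond their spread, and in pCEC 1 Mmp28 lay above Mmp2.

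Mmp28 (epilysin), a secreted enzyme known from keratinocytes, was highest in pCEC. It stood at 9.67, 6.80 and 5.60 CPM in pNCC, 16.8, 11.9 and 4.43 CPM in iCEC and 53.7, 56.8 and 55.9 CPM in pCEC. The pCEC libraries lay close together and above all others, while iCEC overlapped pNCC. Mmp28 was 8.29-fold higher in pCEC than in pNCC (log2 change 3.05 with SE 0.20 and adjusted p = 1.92e-05), and iCEC did not pass against pNCC (log2 fold change 0.65, SE 0.56, adjusted p = 0.428).

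The remaining Mmp members with at least 10 CPM in pNCC were lower in both other groups, or did not pass the test there. Mmp11 (stromelysin 3), known from stroma next to epithelium, was at 134 ± 33.5 CPM in pNCC, 13.0 ± 4.65 CPM in iCEC and 1.22 ± 0.577 CPM in pCEC, with log2 fold changes of -3.39 and -6.63. Mmp19, which is found in many tissues, had log2 fold changes of -6.11 in iCEC and -6.20 in pCEC. The GPI-anchored Mmp17 (MT4-MMP) went from 60.7 ± 27.4 CPM to 0.440 ± 0.203 CPM and 0.154 ± 0.122 CPM. Mmp16 (MT3-MMP) had log2 fold changes of -8.24 and -5.15, and Mmp23 of -6.22 and -4.15. Of the 16 Mmp members tested in each comparison with pNCC, 11 fell and 1 rose in iCEC, and 10 were lower and 2 higher in pCEC, that is 75% called in each, where 31.3% and 62.5% of all tested genes were called. Mmp3, Mmp10, Mmp12 and Mmp13, which did not all pass, are neighbours on one chromosome and are described next.

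In the mouse genome 10 Mmp genes lie side by side on chr9:7272514-7699585, in the order Mmp13, Mmp12, Mmp1b, Mmp3, Mmp1a, Mmp10, Mmp8, Mmp27, Mmp20 and Mmp7. They include collagenases, the stromelysins Mmp3 and Mmp10 and the macrophage elastase Mmp12. Several are known targets of AP-1, the dimer of Fos and Jun proteins, which binds TGANTCA, a motif that reads alike on both strands. Promoter windows from RefSeq (GRCm38.p6, 250 bases before to 50 bases after the start of a gene) were found for 50 of the 80 members, 55 windows in all. The motif was present in 13 of these windows (23.6%), against 2565 of 32851 windows of all genes (7.81%). Of the 10 neighbours, 8 had the motif in a window (Mmp13, Mmp12, Mmp1b, Mmp3, Mmp1a, Mmp10, Mmp20 and Mmp7), and of the 40 other members with a window, 5 did (Adam19, Adam1b, Adam20, Adam25 and Adam29). The letters are a description of these windows and do not show that a factor was bound. The windows of 4 neighbours are given 5′ to 3′, with TGANTCA in capitals, because these genes are described by library in the next paragraph. The motif began 35 bases before the start in Mmp13, 44 in Mmp12 (1 of its pair of windows), 46 in Mmp3 and 63 in Mmp10. Windows of Mmp15, high in all iCEC libraries, and Timp3, high in iCEC 3 alone among them, are given for comparison and hold no such motif, but 22 and 24 CpG dinucleotides against 1 to 3 in the 4 neighbours. The median over windows of all genes was 7. Members that fell in iCEC, such as Adamts2 (41) and Adamts14 (44), also had CpG-rich windows without the motif.
Mmp13 chr9:7272264-7272563 plus strand: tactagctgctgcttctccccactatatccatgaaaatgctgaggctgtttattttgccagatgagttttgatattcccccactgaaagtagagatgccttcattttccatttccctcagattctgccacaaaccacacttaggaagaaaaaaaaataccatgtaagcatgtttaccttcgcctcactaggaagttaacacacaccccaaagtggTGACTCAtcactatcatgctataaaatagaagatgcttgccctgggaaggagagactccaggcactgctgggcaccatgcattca
Mmp12 chr9:7347124-7347423 plus strand: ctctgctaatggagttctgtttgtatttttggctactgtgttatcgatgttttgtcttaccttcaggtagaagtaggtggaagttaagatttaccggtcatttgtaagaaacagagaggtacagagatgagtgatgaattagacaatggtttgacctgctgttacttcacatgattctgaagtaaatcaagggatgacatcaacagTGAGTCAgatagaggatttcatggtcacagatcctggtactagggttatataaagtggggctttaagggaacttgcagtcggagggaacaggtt
Mmp3 chr9:7445572-7445871 plus strand: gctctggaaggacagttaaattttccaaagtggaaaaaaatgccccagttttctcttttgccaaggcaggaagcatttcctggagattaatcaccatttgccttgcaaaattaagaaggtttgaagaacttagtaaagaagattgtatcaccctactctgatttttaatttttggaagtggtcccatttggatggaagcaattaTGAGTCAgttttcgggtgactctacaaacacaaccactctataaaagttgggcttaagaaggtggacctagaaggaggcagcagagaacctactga
Mmp10 chr9:7502092-7502391 plus strand: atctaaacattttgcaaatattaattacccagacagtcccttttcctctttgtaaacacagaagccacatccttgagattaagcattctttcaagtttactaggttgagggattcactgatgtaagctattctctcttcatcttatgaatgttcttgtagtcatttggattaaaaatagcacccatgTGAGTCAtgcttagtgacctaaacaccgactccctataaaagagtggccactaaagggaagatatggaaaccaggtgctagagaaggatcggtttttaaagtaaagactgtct
Mmp15 chr8:95352046-95352345 plus strand: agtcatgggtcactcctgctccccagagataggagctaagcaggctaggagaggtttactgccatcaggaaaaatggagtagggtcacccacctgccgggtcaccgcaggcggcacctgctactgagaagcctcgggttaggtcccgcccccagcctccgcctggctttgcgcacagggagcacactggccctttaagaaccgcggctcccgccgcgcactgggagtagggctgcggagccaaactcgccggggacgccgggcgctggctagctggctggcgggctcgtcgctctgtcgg
Timp3 chr10:86300162-86300461 plus strand: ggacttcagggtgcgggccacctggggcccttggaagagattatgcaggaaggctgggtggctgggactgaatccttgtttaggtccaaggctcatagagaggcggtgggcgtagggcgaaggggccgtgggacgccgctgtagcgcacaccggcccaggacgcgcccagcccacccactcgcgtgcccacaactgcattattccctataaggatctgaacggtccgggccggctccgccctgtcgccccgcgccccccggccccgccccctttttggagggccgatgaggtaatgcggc

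Mmp3, which cuts a broad range of matrix proteins and activates other Mmp precursors, was found at 253, 522 and 221 CPM in pNCC, 1.33, 2.07 and 0 CPM in iCEC and 0.539, 7.71 and 67.3 CPM in pCEC. All pNCC libraries were high, iCEC had none to little, and the pCEC libraries spread over 125-fold with pCEC 3 highest. Mmp3 fell in iCEC (log2 change -8.08 with SE 1.45 and adjusted p = 0.00937) and missed the threshold in pCEC (log2 change -3.53 with SE 1.40 and adjusted p = 0.0618). Mmp13 (collagenase 3) was at 20.4, 21.2 and 28.8 CPM in pNCC, 0.167, 20.3 and 0.893 CPM in iCEC and 0.598, 0.777 and 20.9 CPM in pCEC. In Mmp13, pCEC 3 lay within the pNCC range and iCEC 2 just under it, while the other iCEC and pCEC libraries lay under 1 CPM. Mmp12 was at 10.7, 17.9 and 4.45 CPM, 0.0417, 4.25 and 0.179 CPM and 0.299, 1.05 and 5.84 CPM, again with pCEC 3 within the pNCC range and iCEC 2 just under it. Mmp10 was low everywhere, at 1.12, 3.96 and 8.02 CPM, 0.0417, 1.09 and 2.83 CPM and 0.838, 0.0277 and 1.10 CPM, where iCEC overlapped both other groups and pCEC lay just under pNCC. None of Mmp10, Mmp12 and Mmp13 passed in any comparison with all libraries in edgeR's test. With DESeq2, Mmp10 (log2 fold change -2.62, adjusted p = 0.0139) and Mmp3 (-3.47, adjusted p = 0.0436) passed as lower in pCEC than in pNCC. In edgeR's test Mmp3 also passed there without pCEC 1 (-2.90, adjusted p = 0.0406) and with the replicate number as a block (-5.41, adjusted p = 0.0483). Without iCEC 2, Mmp12 (log2 fold change -6.76, adjusted p = 0.0126, against -2.74 with all libraries) and Mmp13 (-5.63, adjusted p = 0.0105, against -1.59) were lower in iCEC than in pNCC. Reads of Mmp12 and its overlapping neighbour Mmp1b may not be separable.

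**Figure D3:**
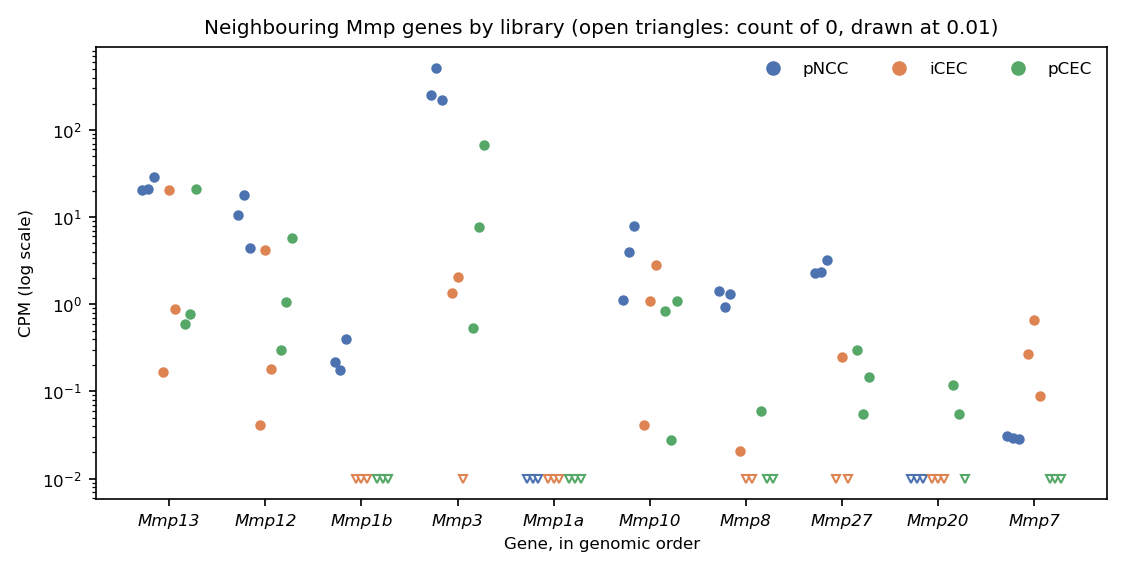
CPM (log scale) of the 10 neighbouring Mmp genes in genomic order, 1 point per library coloured by group, with open triangles at 0.01 for a count of 0. For Mmp13 and Mmp12, iCEC 2 and pCEC 3 lie near the pNCC points and the other iCEC and pCEC libraries lie lower.

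Neutrophil markers (6 genes) summed to 2.09, 1.44 and 223 CPM in pCEC, with Mpo, Elane and Ly6g at 0, and to 90.2, 67.1 and 0.0893 CPM in iCEC, with Ly6g and Csf3r at 0. In pNCC they summed to at most 0.235 CPM. Macrophage markers (7 genes) summed to 24.8 to 46.2 CPM in pCEC. The high levels of Mmp3, Mmp12 and Mmp13 in pCEC 3 thus stood beside a high neutrophil sum in the same library, carried by S100a8 and S100a9, genes also known from stressed epithelium. In iCEC the order differed, as iCEC 1 had the highest neutrophil sum and the lowest Mmp12 and Mmp13. Their part was not tested. Without pCEC 3 alone, Mmp3 (log2 fold change -6.145, adjusted p = 0.00811), Mmp12 (-3.85, adjusted p = 0.0109) and Mmp13 (-4.96, adjusted p = 0.000125) all passed as lower than pNCC. With the pCEC group reduced to the polyA library, their log2 fold changes were -9.22, -5.14 and -5.26.

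Among the Adam members, 15 were tested in each comparison with pNCC. In iCEC 8 fell and 2 rose, and in pCEC 8 were lower and 4 higher (Adam28, Adam15, Adam4 and Adam1a). These are 66.7% and 80% of the tested Adam members, where 31.3% and 62.5% of all tested genes were called. Adam9, a widely expressed sheddase, led the family in pNCC with 103 ± 11.9 CPM per kb. It stood at 378, 417 and 476 CPM in pNCC, 94.3, 88.1 and 142 CPM in iCEC and 62.9, 63.2 and 63.3 CPM in pCEC. Both other groups lay under pNCC without overlap, and Adam9 fell 3.98-fold in iCEC (log2 change -1.99 with SE 0.20 and adjusted p = 0.00150) and 6.15-fold in pCEC (log2 change -2.62 with SE 0.15 and adjusted p = 9.27e-06).

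Adam10 and Adam17, the main sheddases of Notch and of the precursors of TNF and EGF receptor ligands, differed less between groups than Adam9. Adam10 was at 205, 222 and 199 CPM in pNCC, 211, 246 and 169.7 CPM in iCEC and 119.9, 86.1 and 95.7 CPM in pCEC. pNCC and iCEC overlapped (log2 fold change 0.04, SE 0.24), and pCEC lay under both, 1.90-fold lower than pNCC (log2 change -0.93 with SE 0.14 and adjusted p = 0.000816). Adam17 was at 136, 120.2 and 101 CPM, 99.6, 102 and 97.7 CPM and 139, 86.2 and 97.01 CPM. It passed in no comparison, with log2 fold changes of -0.24 (SE 0.18) in iCEC and -0.03 (SE 0.18) in pCEC against pNCC. Adam15 (metargidin), which binds integrins, stood at 99.2, 89.1 and 115 CPM in pNCC, 47.9, 85.3 and 62.0 CPM in iCEC and 179, 189 and 176 CPM in pCEC. The groups did not overlap and pCEC was highest, 1.95-fold above pNCC (log2 change 0.97 with SE 0.14 and adjusted p = 0.000905), while iCEC did not pass against pNCC (log2 fold change -0.61, SE 0.29). In pCEC, Adam15 was the Adam member with the highest level per length, 29.5 ± 1.15 CPM per kb.

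Adam8, a sheddase known from leukocytes and from inflamed tissue (chr7:139978932-139992562, minus strand), had the highest mean level per length of the Adam members in iCEC, 82.8 ± 87.1 CPM per kb. It led in iCEC 1 and iCEC 2, and in iCEC 3, at 8.99 CPM per kb, it lay under Adam10, Adam9, Adam17 and Adam15. It stood at 4.20, 6.30 and 3.91 CPM in pNCC, 281, 829 and 41.7 CPM in iCEC and 1.74, 2.44 and 9.57 CPM in pCEC. All iCEC libraries lay above all others, but over a range of 19.9-fold, with iCEC 3 lowest. Adam8 rose 86.7-fold in iCEC (log2 change 6.44 with SE 1.23 and adjusted p = 0.0115). The call was lost without any 1 pNCC library, at log2 fold changes of 6.33, 6.65 and 6.32. In pCEC it did not pass against pNCC (log2 fold change 0.09, SE 0.66). Macrophage markers (7 genes) summed to 397, 553 and 66.0 CPM in iCEC, with Ptprc, Adgre1 and Lyz2 at 0 in all 3 libraries, and to 25.2 to 36.2 CPM in pNCC. The iCEC sum was carried mainly by Cd14 at 366, 499 and 47.7 CPM, in the same order of libraries as Adam8. Their part in the rise was not tested.

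Adam28, another ADAM first known from lymphocytes, was nearly absent from pNCC, with 2 counts in pNCC 1 and none in pNCC 2 and pNCC 3. It stood at 39.4, 34.7 and 0.536 CPM in iCEC and 35.4, 27.2 and 47.6 CPM in pCEC, with iCEC 3 far below the other 5 libraries. The ratio of summed counts to pNCC was 1363-fold in iCEC (95% counting interval 377 to 11258) and 1814-fold in pCEC (502 to 14984). Adam28 passed as higher in both iCEC (adjusted p = 0.0156) and pCEC (adjusted p = 9.10e-06), the first of which was lost without any 1 pNCC library.

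Adam23, Adam19 and Adam33 had their highest group means in pNCC. Adam23, which has no active zinc site and is known from neurons, was at 57.6, 66.1 and 119.6 CPM in pNCC and had 2 counts in iCEC 1 and none in the other iCEC libraries, a ratio of summed counts of 4842-fold (95% counting interval 1340 to 39990). In pCEC it was 328-fold lower (log2 change -8.36 with SE 0.62 and adjusted p = 3.87e-05). Adam19 (meltrin beta), which sheds neuregulin, was at 109, 120.5 and 142 CPM in pNCC, 2.42, 0.272 and 0 CPM in iCEC and 0.150, 2.80 and 1.86 CPM in pCEC. It was lower in both groups, with log2 fold changes of -7.01 (SE 1.45, lost without any 1 pNCC library) and -6.12 (SE 0.77). Adam33, known from airway mesenchyme and genetic studies of asthma, was at 27.1, 15.5 and 36.2 CPM in pNCC, at 0 in all 3 iCEC libraries and at 1.91, 21.1 and 10.2 CPM in pCEC. The groups pNCC and pCEC overlapped, and iCEC was at least 338-fold lower than pNCC, computed at 3 counts in each iCEC library. In pCEC it did not pass (log2 fold change -1.12, SE 0.76), and with the polyA library as the sole pCEC library it did (log2 fold change -3.75, adjusted p = 0.00906).

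**Figure D4:**
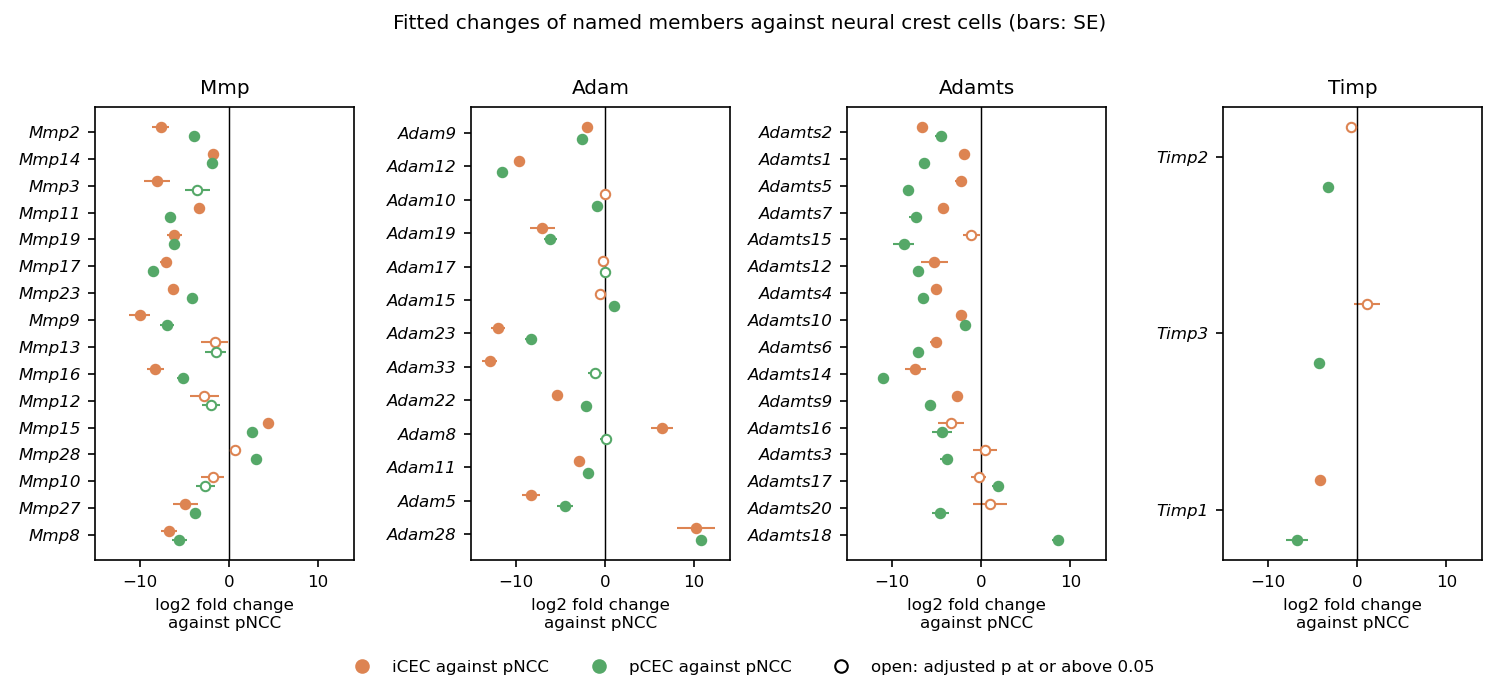
Fitted log2 fold changes (points) with SE (bars) of the named members that were tested, in iCEC and in pCEC against the same pNCC libraries, with open points where the adjusted p was 0.05 or more. Most points lie left of 0. Called points to the right, in at least 1 comparison, are those of Mmp15, Mmp28, Adam8, Adam15, Adam28, Adamts17 and Adamts18. Others to the right did not pass, such as Timp3, Adamts20 and Adamts3 in iCEC. Fitted values of Adam33, Adam23 and Adam5 in iCEC, of Adamts14 and Adamts20 in pCEC, and of Mmp8 and Adam28 in both rest on groups with 3 or fewer counts and are no bounds.

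Among Adamts members, 10 of 15 tested fell in iCEC and none rose. In pCEC all 16 tested members passed, 14 lower and 2 higher. Among all tested genes 31.3% were called in iCEC and 62.5% in pCEC. Adamts2, the N-propeptidase of fibrillar procollagens (chr11:50602084-50807573, plus strand), stood at 485, 416 and 449 CPM in pNCC, 4.00, 5.56 and 3.93 CPM in iCEC and 4.01, 28.5 and 20.7 CPM in pCEC. Both groups lay far under pNCC and overlapped each other, with pCEC 1 at the level of iCEC. The fall was 98.1-fold in iCEC (log2 change -6.62 with SE 0.31 and adjusted p = 0.000268) and 22.9-fold in pCEC (log2 change -4.52 with SE 0.69 and adjusted p = 0.00116). Adamts14, a relative with the same kind of substrate, was at 27.4, 33.5 and 35.0 CPM in pNCC, with log2 fold change -7.37 (SE 1.14) in iCEC. In pCEC it had 1 count in pCEC 2 and none elsewhere, a ratio of summed counts of 3106-fold (95% counting interval 557 to 122710).

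Adamts1 and Adamts5, proteoglycanases that cut versican and aggrecan, stood in iCEC between the other groups. Adamts1 was at 454, 330.5 and 296 CPM in pNCC, 55.5, 136 and 86.1 CPM in iCEC and 4.13, 5.80 and 1.497 CPM in pCEC. The groups did not overlap, and the order was the same as for Adamts5, at 275, 181 and 165 CPM, 83.6, 31.1 and 15.1 CPM and 0.180, 0.998 and 0.803 CPM. Adamts1 fell 3.79-fold in iCEC (log2 change -1.92 with SE 0.40 and adjusted p = 0.0158) and was 86.2-fold lower in pCEC (log2 change -6.43 with SE 0.51 and adjusted p = 5.03e-05). For Adamts5 the values were 4.62-fold (log2 change -2.21 with SE 0.67 and adjusted p = 0.0498) and 283-fold (log2 change -8.15 with SE 0.56 and adjusted p = 2.74e-05). The iCEC calls were lost without pNCC 1 or pNCC 2 for Adamts1, and without any 1 pNCC library or iCEC 2 for Adamts5. Between iCEC and pCEC directly, Adamts1 was 22.7-fold higher in iCEC (log2 change 4.51 with SE 0.62 and adjusted p = 0.00646) and Adamts5 59.9-fold (log2 change 5.91 with SE 0.98 and adjusted p = 0.0110).

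Adamts15 and Adamts9, of the same proteoglycanase branch, kept that order. Adamts15 was at 206, 64.7 and 17.1 CPM in pNCC, 84.4, 17.7 and 28.1 CPM in iCEC and 0.0598, 0.388 and 0.146 CPM in pCEC. pNCC spread over 12.1-fold and overlapped iCEC, while all pCEC libraries were under 1 CPM. It did not pass in iCEC against pNCC (log2 fold change -1.11, SE 0.97) and was 194-fold higher in iCEC than in pCEC (log2 change 7.60 with SE 1.00 and adjusted p = 0.00591). Adamts9 went from 29.3 ± 8.66 CPM in pNCC to 4.56 ± 0.858 CPM in iCEC and 0.517 ± 0.252 CPM in pCEC. Adamts4 went from 43.5 ± 4.14 CPM to 1.26 ± 0.277 CPM and 0.435 ± 0.171 CPM, and the last pair did not pass against each other (adjusted p = 0.141). Adamts6, Adamts7 and Adamts12 fell with log2 fold changes of -5.10, -4.25 and -5.23 in iCEC, and were lower by -7.08, -7.33 and -7.06 in pCEC. Adamts12 was uneven in iCEC, at 0.0834, 0.0545 and 4.49 CPM, and its iCEC call was lost in 5 of 6 fits that left out a library. Adamts10, which is known from fibrillin microfibrils and the eye, fell 4.91-fold in iCEC (log2 change -2.30 with SE 0.49 and adjusted p = 0.0161), a call lost without any 1 pNCC library.

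The 2 Adamts members that were higher in pCEC than in pNCC were Adamts18 and Adamts17, both known from inherited disorders of the eye. Adamts18 stood at 0.0622, 0.0586 and 0 CPM in pNCC, 0, 1.91 and 0 CPM in iCEC and 18.9, 18.7 and 8.87 CPM in pCEC. All pCEC libraries lay above all others, and pNCC held 4 counts in all. It was 387-fold higher in pCEC (log2 change 8.60 with SE 0.60 and adjusted p = 2.38e-05). Adamts17 was at 3.48, 2.35 and 0.514 CPM, 2.81, 1.58 and 0.714 CPM and 5.00, 8.15 and 7.56 CPM, 3.64-fold higher in pCEC than in pNCC (log2 change 1.86 with SE 0.61 and adjusted p = 0.0321), a call lost without pNCC 2, pCEC 2 or pCEC 3.

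Members with a mean under 10 CPM in every group also differed, and the 8 with the largest called changes are given here. Mmp8 (neutrophil collagenase) had 46, 32 and 46 counts in pNCC, 1 count in all of iCEC and 2 in all of pCEC, a ratio of summed counts of 145-fold (95% counting interval 25.5 to 5764) and 59.3-fold (16.1 to 495). It was lower in both (adjusted p = 0.00314 and 0.000973). Mmp27 stood at 2.27, 2.38 and 3.20 CPM in pNCC and fell in iCEC (log2 change -4.89 with SE 1.41 and adjusted p = 0.0432), a call lost without any 1 pNCC library or iCEC 1, and it was lower in pCEC (log2 change -3.83 with SE 0.58 and adjusted p = 0.000959).

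Adam22, which has no active zinc site and binds Lgi proteins at synapses, was at 15.0, 7.51 and 5.45 CPM in pNCC, 0.167, 0.272 and 0.208 CPM in iCEC and 1.38, 2.496 and 1.68 CPM in pCEC. The groups did not overlap and iCEC was lowest, 42.0-fold under pNCC (log2 change -5.39 with SE 0.59 and adjusted p = 0.00208). Adam11, a relative also known from neurons, was lower in iCEC (log2 change -2.94 with SE 0.59 and adjusted p = 0.0135) and in pCEC (log2 change -1.86 with SE 0.60 and adjusted p = 0.0293), and both calls were lost without any 1 pNCC library, that in pCEC also without pCEC 3. Adam5, known from the testis, had 48, 24 and 36 counts in pNCC, none in iCEC and 4 in all of pCEC. It was at least 13.8-fold lower in iCEC (adjusted p = 0.00680) and lower in pCEC (adjusted p = 0.00478).

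Adamts3, a procollagen propeptidase, had 58, 70 and 99 counts in pNCC, 4, 24 and 323 in iCEC and 6, 8 and 0 in pCEC. Adamts20, known from pigment cell migration in mouse, had 12, 20 and 32 counts in pNCC, 0, 0 and 148 in iCEC and 0, 2 and 0 in pCEC. For both genes iCEC 3 exceeded every other library while iCEC 1 and iCEC 2 lay under all pNCC libraries. Neither passed in iCEC (adjusted p = 0.828 and 0.722), but without iCEC 3 Adamts20 was lower than pNCC (log2 fold change -7.53, adjusted p = 0.0105). Both were lower in pCEC (adjusted p = 0.00328 and 0.00418). Adamts16 was at 5.56, 3.40 and 0.856 CPM in pNCC, did not pass in iCEC (log2 change -3.42 with SE 1.46 and adjusted p = 0.127) and was lower in pCEC (log2 change -4.37 with SE 1.09 and adjusted p = 0.0108).

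**Figure D5:**
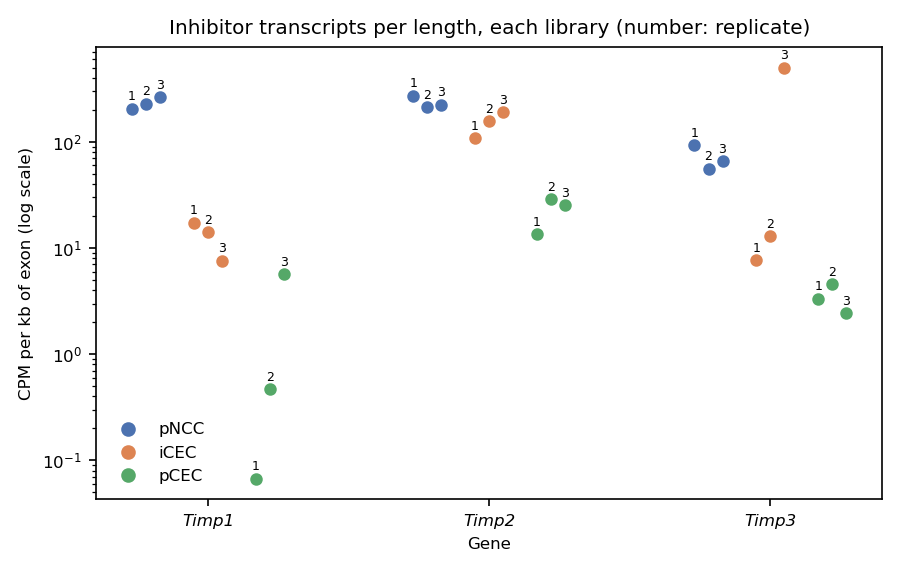
Level of Timp1, Timp2 and Timp3 (CPM per kb of exon, log scale) in each library, coloured by group and numbered by replicate. Timp1 falls from pNCC to iCEC to pCEC, Timp2 is close in pNCC and iCEC, and Timp3 is highest in iCEC 3 and lower in iCEC 1 and iCEC 2.

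Timp1, Timp2 and Timp3 were all lower in pCEC than in pNCC, while in iCEC only Timp1 passed with all libraries. Timp1 (chrX:20870166-20874735, plus strand), a secreted inhibitor of most soluble Mmp members, was at 183, 204 and 235 CPM in pNCC, 15.4, 12.5 and 6.76 CPM in iCEC and 0.0598, 0.416 and 5.00 CPM in pCEC. The groups did not overlap and pCEC was lowest. Timp1 fell 17.4-fold in iCEC (log2 change -4.12 with SE 0.42 and adjusted p = 0.00176) and was 106-fold lower in pCEC (log2 change -6.72 with SE 1.21 and adjusted p = 0.00245). Timp2 (chr11:118301069-118355740, minus strand), which also takes part with Mmp14 in activating Mmp2, was at 1063, 823 and 876 CPM in pNCC, 425, 610.4 and 744 CPM in iCEC and 52.5, 113 and 98.8 CPM in pCEC. iCEC lay just under pNCC and did not pass (log2 fold change -0.64, SE 0.23, adjusted p = 0.0849). Without iCEC 3, Timp2 passed as lower than pNCC (log2 fold change -0.75, adjusted p = 0.0485). In pCEC, Timp2 was 9.48-fold lower than pNCC (log2 change -3.25 with SE 0.32 and adjusted p = 0.000136).

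Timp3 (chr10:86300372-86349506, plus strand), which stays bound to matrix and also inhibits Adam17 and several Adamts proteases, was at 756, 456 and 532 CPM in pNCC, 62.4, 106 and 4084 CPM in iCEC and 27.2, 37.4 and 19.8 CPM in pCEC. iCEC 1 and iCEC 2 lay under all pNCC libraries and iCEC 3 lay above all of them, a range of 65.4-fold within iCEC. With all libraries it did not pass in iCEC (log2 change 1.12 with SE 1.42 and adjusted p = 0.594), and without iCEC 3 it was lower than pNCC (log2 fold change -2.71, adjusted p = 0.00293). In pCEC it was 18.9-fold lower than pNCC (log2 change -4.24 with SE 0.31 and adjusted p = 2.97e-05). Timp4 had 0 counts in all iCEC and pCEC libraries and at most 0.117 CPM in pNCC. Each of Timp1, Timp3 and Timp4 lies inside a synapsin gene on the opposite strand (Syn1, Syn3 and Syn2). The strand setting of the counting is not given, and the counts of Syn1 and Syn3 were at most 130 and 205 in any library.

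The ratio of the summed Mmp level to the summed Timp level, both as CPM per kb, was 1.57, 1.79 and 1.26 in pNCC, 0.748, 0.732 and 0.129 in iCEC, and 3.91, 3.24 and 4.36 in pCEC. The 3 groups did not overlap, with iCEC under and pCEC above pNCC. In iCEC the Timp sum was mostly Timp2 in replicates 1 and 2 (81.3% and 85.3%) and mostly Timp3 in replicate 3 (71.6%). In pCEC it was mostly Timp2 in all libraries (75.9% to 85.1%), at a summed Timp level of 28.1 ± 9.75 CPM per kb against 541 ± 39.5 CPM per kb in pNCC. This is a ratio of transcript levels and not of protein or of enzyme activity.

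In the direct comparison of iCEC with pCEC, 39 members were tested, of which 9 were higher in iCEC, 6 were lower and 24 did not pass. Among all 16278 genes tested, 20.4% were called, 10.5% higher and 9.92% lower in iCEC. The median log2 fold change was 0.02 over the tested members and 0.04 over all tested genes. Higher in iCEC were 4 Adamts members (Adamts1, Adamts5, Adamts9 and Adamts15), Mmp11, Mmp15, Adam8, Adam10 and Timp2. Timp2 was 6.07-fold higher (log2 change 2.60 with SE 0.39 and adjusted p = 0.00772), Mmp11 9.55-fold (log2 change 3.26 with SE 0.49 and adjusted p = 0.00787) and Adam8 78.7-fold (log2 change 6.30 with SE 1.41 and adjusted p = 0.0257). Lower in iCEC were Mmp2, Mmp23, Mmp28, Adam15, Adam22 and Adam33. Adam33 was at least 142-fold lower, Mmp28 5.36-fold (log2 change -2.42 with SE 0.50 and adjusted p = 0.0207), Mmp2 13.4-fold (log2 change -3.75 with SE 1.02 and adjusted p = 0.0466) and Adam15 3.01-fold (log2 change -1.59 with SE 0.27 and adjusted p = 0.0110). Timp3 did not pass (log2 change 5.43 with SE 1.70 and adjusted p = 0.0696). It passed as higher without iCEC 3 (log2 fold change 1.56, adjusted p = 0.0163), without iCEC 1 (5.99, adjusted p = 0.0461) and with all 9 libraries in 1 fit (5.30, adjusted p = 0.0287). Nor did Adam9 (adjusted p = 0.0601) or Adamts17 (adjusted p = 0.0558) pass. Adam9 passed as higher without iCEC 3 (adjusted p = 0.0450) and with all 9 libraries in 1 fit (adjusted p = 0.0367). Adamts17 passed as lower without iCEC 1 (adjusted p = 0.0482), without iCEC 3 (adjusted p = 0.0364) and with DESeq2 (adjusted p = 0.00307). Of the 15 calls, 5 held in every fit that left out 1 library, those of Mmp11, Mmp15, Timp2, Adamts1 and Adamts15, while those of Mmp2, Mmp23 and Adam10 were lost in 5 of the 6 such fits. Without pCEC 2, 6 members were called, and without pCEC 3 also 6, where 6.63% and 6.55% of all tested genes were called. In both fits no member was called lower in iCEC. Reducing pCEC to the polyA library leaves 1 library in that group, so only effect sizes are given for the 5 calls that held. Their log2 fold changes were 3.82 for Mmp11, 2.09 for Mmp15, 3.48 for Timp2, 4.49 for Adamts1 and 9.41 for Adamts15. DESeq2 on all 6 libraries called 20 members, where it called 16.7% of all genes with a count.

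Members with at least 10 CPM, a set that differs between groups, were steadier within pNCC than within the other groups. The highest library exceeded the lowest by a median of 1.38-fold over 34 such members in pNCC, 2.23-fold over 16 in iCEC and 1.82-fold over 16 in pCEC. Over genes of the whole table, chi-square per degree of freedom between replicates was 48.4 to 112 in pNCC, 240 to 682 in iCEC and 49.1 to 144 in pCEC. The wider spread in iCEC was thus not particular to the members. A range over 4-fold was found for 2 members in pNCC (Adamts15 and Mmp12), 5 in iCEC (Adam28, Timp3, Adam8, Adamts5 and Adamts15) and 4 in pCEC (Mmp3, Adam33, Adamts2 and Mmp2). In pCEC, Mmp2, Adamts2 and Adam33 had their lowest value in pCEC 1, the library labelled polyA RNA, and Mmp3 also had its lowest value there.

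Other genes of the same pathway were taken as lists, whose counts are read against the 31.3% of all tested genes called in iCEC against pNCC and the 62.5% called in pCEC against pNCC. Of 25 listed activators and surface regulators of these proteases, 23 were tested. In iCEC 6 rose and 4 fell, and in pCEC 10 were higher and 8 lower than in pNCC, or 43.5% and 78.3% called. The epithelial membrane serine proteases St14 (matriptase) and Prss8 (prostasin) were higher in both, St14 with 293 ± 145 CPM in iCEC, 214 ± 28.6 CPM in pCEC and 1.19 ± 0.388 CPM in pNCC. Reck, a membrane inhibitor of Mmp2, Mmp9 and Mmp14, was lower in both, with 55.6 ± 14.8 CPM in pNCC, 1.18 ± 0.640 CPM in iCEC and 2.52 ± 1.35 CPM in pCEC. Rhbdf2 (iRhom2), which brings Adam17 to the cell surface, rose in iCEC (log2 change 1.59 with SE 0.33 and adjusted p = 0.0152) and was higher in pCEC (log2 change 1.48 with SE 0.25 and adjusted p = 0.00178). Among the tetraspanins that partner Adam10, Tspan33 and Tspan14 rose in iCEC and Tspan15 fell there (log2 change -2.10 with SE 0.53 and adjusted p = 0.0273), while Tspan15 was higher in pCEC (log2 change 1.86 with SE 0.29 and adjusted p = 0.00115). A2m, a secreted trap for proteases, was at 1221 ± 713 CPM in pCEC against 1.72 ± 1.38 CPM in pNCC and 0.317 ± 0.550 CPM in iCEC.

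Listed substrates were split by the type of enzyme that acts on them. Of the matrix substrates, 14 were tested in iCEC, where 8 fell and 3 rose, and 12 in pCEC, where 9 were lower and 2 higher, or 78.6% and 91.7% called against 31.3% and 62.5% of all tested genes. Versican (Vcan), cut by the Adamts proteoglycanases, was at 837 ± 126 CPM in pNCC, 14.2 ± 8.92 CPM in iCEC and 0.216 ± 0.153 CPM in pCEC. The laminin chain Lama3 of epithelial basement membrane was higher in both. Of 17 shedding substrates of ADAMs, 8 rose and 1 fell in iCEC, and 13 were higher and 1 lower in pCEC, or 52.9% and 82.4% called. E-cadherin (Cdh1) and the EGF receptor ligands Tgfa and Areg were among those higher, and N-cadherin (Cdh2) was the one lower. Tgfa was at 1.53 ± 0.117 CPM in pNCC, 62.0 ± 4.04 CPM in iCEC and 27.3 ± 6.71 CPM in pCEC. Of the ADAMTS-like and procollagen-processing genes, 2 of 10 tested rose in iCEC and 3 fell, and 3 of 12 were higher in pCEC and 3 lower. With 50% called in pCEC, this list lay under the 62.5% of all tested genes. Bmp1, the C-propeptidase of procollagens, went from 728 ± 103 CPM in pNCC to 73.8 ± 32.4 CPM in iCEC and 45.7 ± 10.1 CPM in pCEC. Of 13 AP-1 and ETS factors known to act on Mmp promoters, 3 rose and 2 fell in iCEC, and 8 were higher and 2 lower in pCEC. The 38.5% called in iCEC was near the 31.3% of all tested genes, and in pCEC 76.9% were called. Fos varied within iCEC and pCEC but little within pNCC, with pNCC at 23.0 ± 1.15 CPM, iCEC at 166 ± 253 CPM and pCEC at 1279 ± 1386 CPM. The epithelial ETS factors Ehf and Elf3 were higher in both, and Ets1 was lower in both (log2 change -0.94 with SE 0.19 and adjusted p = 0.0137 in iCEC and log2 change -3.53 with SE 0.22 and adjusted p = 1.30e-05 in pCEC).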

How the data were processed

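RNA sequencing of 3 pNCC, 3 iCEC and 3 pCEC libraries was deposited as 1 table of whole-number counts per gene symbol, with no normalization seen in the values. Per the labels' protocols, libraries were made with the NEBNext Ultra RNA kit and read as 150-base pairs. Per the submitters' processing notes the build was mm10 and edgeR was used, with no version. The aligner, the counter, its strand setting and the annotation are not given in the sources used here. Among counts from 1 to 10, 69.1% to 74.5% per library were even, so both ends of a pair may have been counted, and counts may overstate the number of fragments. The labels do not say whether replicates are separate cultures or animals, so the spread behind each p-value may be technical, and no pair of replicates matched within sampling noise (chi-square per degree of freedom 48.4 to 682).

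Groups came from the sample titles. The members, lists and tests were chosen with earlier results of these data known. Only the 6 libraries being compared entered a fit, made with edgeR 4.0.16 in R 4.3.3 (filterByExpr, TMM, robust quasi-likelihood fit, group as the only term, 2-sided), with Benjamini-Hochberg adjustment over all genes tested. SE is the absolute log2 fold change over the square root of F, and may be too small where a group has few counts. CPM used library totals, and levels per kb used the exon union of GENCODE M21, in which 79 of the 80 symbols matched 1 gene. Where a group had no count, a fold is a bound at 3 counts per library (0.0625 to 0.110 CPM), and where it had 1 to 3 counts in all, a ratio of summed counts with its 95% interval. Both cover counting error only. The 49 named members were all Timp genes, Adam12, every member with a group mean of at least 10 CPM, beyond these the 3 called members of the Mmp, Adam and Adamts families with the largest fold change, and members that just missed 0.05 (adjusted p under 0.1). Same-strand genes overlap Adam4 (Cox16, Gm20498) and Adam1a (Mapkapk5, Gm42878), and Mmp1b overlaps Mmp12 on the other strand, so the counts of these members are uncertain. The fit was tested on simulated data. Alternatives were DESeq2 1.42.0, other scalings and filters, 1 fit over all 9 libraries, the replicate number as a block, the polyA library alone as pCEC, a 2-fold minimum, and each library left out. Figures used matplotlib 3.10.9, and tables pandas 2.3.3 and numpy 2.4.6, in Python 3.11.15. Proteins were not analysed here.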

Additional observations from a re-analysis of the deposited data

How the results depend on the processing

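The count of members called in iCEC against pNCC was 33, and 29 to 38 under the alternatives, with 23 to 38 when 1 library was left out. In pCEC against pNCC it was 43, and 38 to 49, with 41 to 44 when 1 library was left out. There 62.5% of all tested genes were called, 36.1% to 66.6% in the other fits and 53.0% to 61.7% with 1 library left out. In iCEC against pCEC the count of members was 15, and 6 to 19 when 1 library was left out (6 without pCEC 2, 6 without pCEC 3). Of all tested genes 20.4% were called in that comparison, and 6.55% to 28.7% with 1 library left out. It was 23 with all 9 libraries in 1 fit, where 28.2% of all tested genes were called. The fit with the polyA library alone as pCEC leaves 1 library in that group, so its calls are not read here. With fewer pCEC libraries the spread is estimated from fewer samples, and other causes were not tested. Of these calls, 10 of 33, 3 of 43 and 10 of 15 were lost in at least 1 fit that left out a library. A lone pCEC library was given the spread of the group it was compared with.

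With the replicate number as a block the counts were 30, 42 and 7, where 17.6%, 58.9% and 7.96% of all tested genes were called. Deviations of same-numbered libraries from their group means had correlations of -0.202 to 0.0472, and those of differently numbered libraries -0.145 to 0.186. Deviations from a mean of 3 libraries are not independent. The correlations therefore cannot show whether same-numbered libraries share an origin.

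Library totals without TMM, chosen after seeing the data, moved the median log2 fold change of all genes to -0.14 in pCEC against pNCC and to 0.17 in iCEC against pCEC.

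Directions that turned were of members that did not pass with all libraries. In iCEC against pNCC, Adam10 had log2 fold changes of -0.013 with DESeq2 size factors, -0.019 with DESeq2 and -0.006 with the block, and -0.179 to 0.209 with 1 library left out. Timp3 had -1.269 with the block and -2.706 to 1.673 with 1 library left out, Adamts15 -2.097 to 0.093 and Adamts17 -0.808 to 0.296. Adamts20 had -2.497 and Adamts3 -1.313 with the block, and -7.528 to 1.617 and -2.524 to 1.035 with 1 library left out. In pCEC against pNCC, Adam17 had 0 with DESeq2 size factors, 0.006 with a filter of 1 CPM, 0.251 with the polyA library and -0.154 to 0.126 with 1 library left out. Adam8 had -0.075 with library totals, -0.346 with the block, -1.433 with the polyA library (adjusted p = 0.0479) and -1.067 to 0.556 with 1 library left out. In iCEC against pCEC, Mmp19 had -0.011 with DESeq2 size factors, -0.006 with DESeq2, -0.002 with all 9 libraries, -0.194 with the block and -0.614 to 0.579 with 1 library left out. Adamts12 had -0.452 with the block. The polyA library alone gave 0.800 for Adam11, 2.574 for Adam19, 0.252 for Adamts10, 0.165 for Adamts2, 2.366 for Mmp12, 3.627 for Mmp13 and 1.116 for Mmp3. With 1 library left out, Adamts10 had -1.107 to 0.181, Adamts12 -2.287 to 2.487, Mmp10 -0.219 to 1.523, Mmp12 -4.672 to 1.085, Mmp13 -4.073 to 3.342 and Mmp14 -0.131 to 0.477. The causes were not tested.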
